A study of Meloidogyne incognita with 75 samples.

Results

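The transcripts described here are 120 of 45378 in a table of single-nematode RNA-seq counts of Meloidogyne incognita, a root-knot nematode that parasitises plant roots, and they are those with high mean levels in both moulting J4 animals and males and low mean levels in the 6 other stages. They were chosen on these measured levels. Among 43359 genes with a single transcript identifier, 9536 reached a mean of at least 10 CPM (counts scaled to the library's total) in both stages, 1309 of these had a mean log2(CPM + 1) above that of each other stage in both, and the 120 with the largest margin were kept. The margin, called the score, is the lower of the male and moulting means minus the highest mean of the 6 other stages, on the log2(CPM + 1) scale. It ran from 1.96 to 5.19 with a median of 2.47. Since the rule used these means, the height of the 120 transcripts over other stages is a description and was not tested.

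A nematode grows by moulting, in which it detaches from its old cuticle, secretes a new one beneath it and sheds the old one. In root-knot nematodes the juveniles that feed in the root are swollen and immobile, and the last moults follow each other closely. The male changes back from this swollen form to a slender, mobile worm inside the old cuticle and then leaves the root, whereas the female stays swollen and sedentary. Moulting in nematodes is known to run as a timed sequence, with collagens, proteases and other secreted proteins switched on and off within hours. The files give transcript identifiers without gene names, and none could be assigned here, so no function is given to any of the 120.

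Each library is 1 animal, staged by morphology under the microscope and lysed alone, with its messenger RNA copied by Smart-seq2, a low-input full-length method. Of the 75 libraries, 14 are J4_moulting and 7 are male. The other 6 stages are pre_J2 (5 libraries, animals hatched from eggs in vitro), par_J2 (12), J3 (14), J4 (8), J4_female (8) and female (7, tagged Adult female). The libraries titled male carry the tag J4_male, so the labels leave unsaid whether these animals had completed the last moult, and the sex of the J4_moulting animals is not stated. Strain, host plant and animal age in days are not given for any group, and no batch is named. Total counts ran from 17927727 to 27648667 in the 7 males and from 9727803 to 26234699 in the 14 moulting animals. CPM is not divided by transcript length, so levels are compared between libraries and not between transcripts, and in whole animals fewer cells of a type and less RNA per cell cannot be told apart.

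The 120 transcripts together held between 0.425 and 13.02% of all counts in the males, with a median of 7.002%, and between 1.16 and 7.21% in the moulting animals, with a median of 2.35%. In the 54 libraries of the other stages their summed level reached at most 0.401%. The lowest moulting animal, replicate 4, stood at 11611 CPM and the highest library of any other stage, J4 replicate 5, at 4013 CPM, so that on the summed level the moulting animals did not overlap with the 6 other stages. The lowest male, replicate 2, stood at 4246 CPM, just above that J4 library. The 120 were chosen for this gap in the stage means, so the separation is a description and no result of a test.

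**Figure D1:**
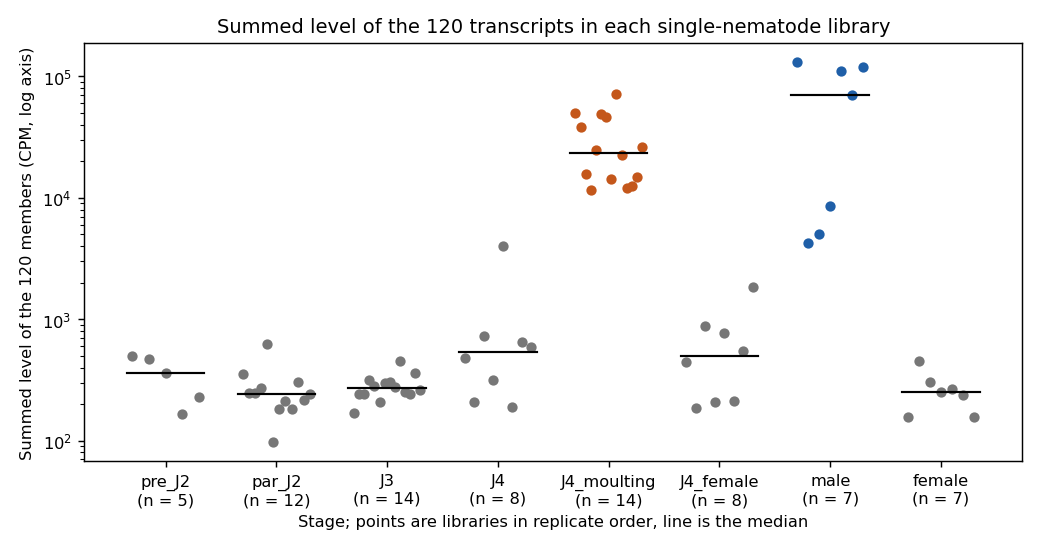
Summed CPM of the 120 transcripts (log axis) in every library by stage, with points in replicate order and the stage median as a line. All 14 J4_moulting libraries lie between 11611 and 72091 CPM, while the 7 male libraries fall into 3 at 4246 to 8602 CPM and 4 at 70022 to 130227 CPM.

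The males did not carry these transcripts evenly. Male replicates 1, 5, 6 and 7 had summed levels of 130227, 109938, 70022 and 119877 CPM, and replicates 2, 3 and 4 had 4246, 5033 and 8602 CPM. For 90 of the 120 transcripts, replicates 2, 3 and 4 were all below each of the other 4 males. The same count was not made over other transcripts, so it cannot tell a trait of the 120 from one of the whole libraries. At least 1 CPM was reached by 117 of the 120 in replicate 1, 119 in replicate 5, 119 in replicate 6 and all 120 in replicate 7, but by 74 in replicate 2, 71 in replicate 3 and 52 in replicate 4. Replicate 4 had no count for 58 of them, although its total of 23920853 counts was among the 3 largest of the males. It also had the fewest detected transcripts of any male, 18969 against 24872 to 28988 in the others. Replicates 2 and 3 had totals of 21489224 and 24435831 counts, and the part of depth or detection in the low levels was not tested.

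Levels of the transcripts outside the 120 were compared between males. Across 25831 of them, Spearman's rho between pairs of males ran from 0.56 to 0.85. Replicates 2, 3 and 4 had values of 0.65 to 0.85 with each other, of 0.62 to 0.80 with replicates 1 and 6, and of 0.56 to 0.66 with replicates 5 and 7. The values among replicates 1, 5, 6 and 7 were 0.69 to 0.84. Replicate 4 had the lowest median rho with the other males, 0.63. These correlations are across transcripts within libraries, and transcripts are not independent replicates.

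Mi_20362.1 had the highest score of all, 5.19. Its lowest, median and highest levels were 0, 273 and 1523 CPM in the males and 6.67, 62.7 and 632 CPM in the moulting animals. Male replicates 1, 5, 6 and 7 held it at 273 to 1523 CPM and replicates 2, 3 and 4 at 0 to 1.80 CPM, so the males spanned the whole range seen in the moulting animals and beyond, and the highest library of any other stage reached 17.9 CPM. Among moulting animals replicate 13 was the highest and replicate 14 the lowest.

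Mi_05407.1 and Mi_34481.1 had scores of 4.36 and 4.15 and the same division of the males. The lowest, median and highest levels of Mi_05407.1 were 0, 450.1 and 1004 CPM in the males and 17.4, 159.6 and 692 CPM in the moulting animals. Those of Mi_34481.1 were 0, 576 and 1557 CPM in the males and 12.7, 249.5 and 2801 CPM in the moulting animals. For both transcripts moulting replicate 13 was the highest moulting animal, replicates 11 and 12 followed, and replicate 14 was the lowest. Every moulting animal held Mi_05407.1 above its highest library of the other stages, 7.94 CPM, but male replicates 2, 3 and 4 did not.

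Mi_43822.1 and Mi_43823.1 carry consecutive identifiers and scored 4.09 and 4.20. Mi_43822.1 had lowest, median and highest levels of 0.205, 126 and 1619.6 CPM in the males and 24.2, 85.5 and 308 CPM in the moulting animals. For Mi_43823.1 these were 0, 80.5 and 1006 CPM and 6.21, 43.0 and 198 CPM. Both were highest in male replicate 7 and, among moulting animals, in replicate 6. Mi_37239.1 scored 3.90 and was measured at 0, 65.0 and 723 CPM in the males and 8.12, 25.4 and 71.0 CPM in the moulting animals, again as lowest, median and highest. Its identifier is consecutive with that of Mi_37238.1, also among the 120, and these are the 2 consecutive pairs of the set. Consecutive numbers are given here as labels, since no annotation was used to place them in the genome.

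A small number of the 120 were high in every male. Only 13 reached 10 CPM in all 7 males and 39 reached 1 CPM, against 17 and 75 in all 14 moulting animals. The counts given here were not made over all transcripts, and the rule ranked on means of these libraries, so they are a description. For 5 transcripts every male lay above every library of the 6 other stages. They are Mi_26543.1, Mi_00350.1, Mi_05846.1, Mi_19800.1 and Mi_05374.1, picked out after their values were seen.

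Mi_26543.1 and Mi_00350.1, with scores of 4.56 and 4.06, and Mi_05846.1 were 3 of these. The lowest, median and highest levels of Mi_26543.1 were 88.9, 707 and 2376 CPM in the males and 0, 262 and 6799 CPM in the moulting animals. Those of Mi_00350.1 were 253, 679 and 2310.3 CPM and 0, 300.1 and 3681 CPM. Those of Mi_05846.1 were 249.9, 478 and 2421 CPM and 1.88, 392 and 6904 CPM. In males all 3 were high throughout, and replicate 4, which had no count for 58 of the 120, stood at 2132, 2310.3 and 1911 CPM. In moulting animals they were high in replicates 6, 7 and 10 and at 7.01 CPM or less in replicates 5, 8 and 12. Pearson's r of log2(CPM + 1) between Mi_26543.1 and Mi_00350.1 was 0.99 over the 21 libraries. That of Mi_05846.1 with them was 0.97 and 0.98, but over the 7 males alone 0.67 and 0.83.

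**Figure D2:**
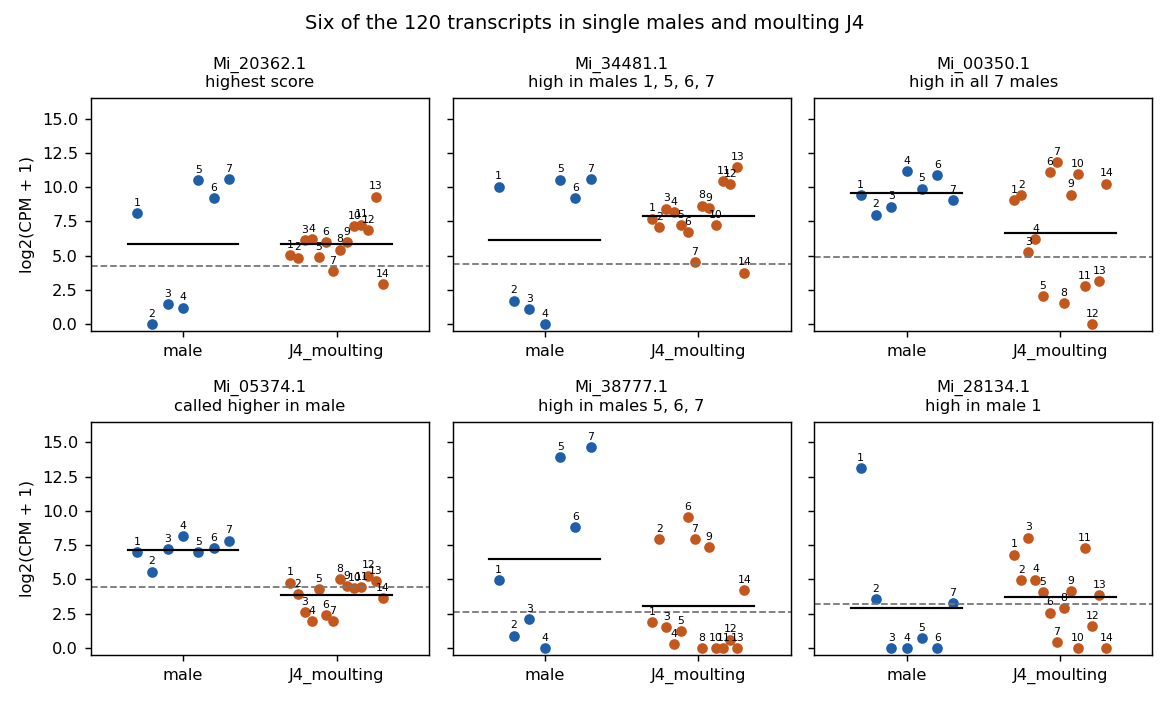
Log2(CPM + 1) of 6 of the 120 transcripts in each male (blue) and each moulting animal (orange), numbered by replicate, with the stage mean of the log values as a black line and the highest library of the 6 other stages as a dashed line. Mi_20362.1 and Mi_34481.1 are low in males 2, 3 and 4, Mi_00350.1 and Mi_05374.1 lie above the dashed line in every male, Mi_38777.1 is highest in males 5 and 7, and Mi_28134.1 reaches 8697 CPM in male 1 and at most 10.7 CPM in the other males.

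The 5 transcripts with the highest mean CPM in males were Mi_06983.1, Mi_38777.1, Mi_44215.1, Mi_37669.1 and Mi_17785.1. Mi_06983.1 was measured at 19492, 10551 and 18857 CPM in male replicates 5, 6 and 7, at 728 CPM in replicate 1, and at no more than 1.63 CPM in the others. Its lowest, median and highest levels in moulting animals were 1.27, 233 and 1877 CPM, so the 3 high males lay above every moulting animal and the 3 low ones near or below the lowest. Mi_44215.1 and Mi_37669.1 were likewise highest in replicates 5, 6 and 7, with 14281 and 14692 CPM in replicate 5. For Mi_17785.1 the lowest, median and highest levels were 14.1, 1451 and 9531 CPM in males and 1.51, 65.3 and 361 CPM in moulting animals.

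Mi_38777.1 was among the transcripts present in the fewest moulting animals. It stood at 25685 CPM in male replicate 7 and 15726 CPM in replicate 5, against 449 CPM in replicate 6 and 30.0 CPM in replicate 1. Moulting replicates 2, 6, 7 and 9 held it at 166 to 744 CPM, replicate 14 at 17.9 CPM, and the other 9 at 2.74 CPM or less. Mi_36432.1 was similarly patchy, with lowest, median and highest levels of 0, 4.47 and 1293 CPM in moulting animals and 0, 6.04 and 242 CPM in males.

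The 5 transcripts with the highest mean CPM in moulting animals were Mi_26659.1, Mi_03491.1, Mi_13531.1, Mi_05846.1 and Mi_09886.1. Mi_26659.1 had lowest, median and highest levels of 0.953, 456 and 13701 CPM in moulting animals and 0.491, 591 and 2673 CPM in males. Mi_03491.1 had 0, 121 and 14896 CPM in moulting animals and 2.13, 98.2 and 12701 CPM in males. Both were highest in moulting replicate 9 and in male replicate 1, and Mi_03491.1 was at 0 in moulting replicate 13 although that library held 20527131 counts; a count of 0 there allows up to 3 counts, and this limit covers counting error only.

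Mi_13531.1 was highest in other moulting animals, replicates 14 and 7, at 11284 and 10717 CPM, with a lowest level of 1.32 CPM and a median of 14.7 CPM. Its lowest, median and highest levels in males were 18.4, 56.2 and 2193 CPM, with replicate 6 the highest. Mi_09886.1 had lowest, median and highest levels of 52.8, 1049 and 4508 CPM in moulting animals and 0, 176 and 548 CPM in males, and moulting replicates 11 to 14 were its lowest, all below 100 CPM.

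Male replicate 1 differed from replicates 5, 6 and 7 within the 120. It was the highest male for 39 transcripts, exceeded each of replicates 5, 6 and 7 by 10-fold or more for 10, and was 10-fold or more below each of them for 15. Replicates 7, 6 and 5 were the highest male for 35, 20 and 18. Over 90% of the summed male CPM came from replicate 1 for 7 transcripts. These counts were not made over other transcripts, so they cannot tell a trait of the 120 from one of the whole library. Mi_32920.1 was at 17590.4 CPM in replicate 1 and between 0 and 26.7 CPM in the other males, and Mi_28134.1 at 8697 CPM in replicate 1 and between 0 and 10.7 CPM in the others. In moulting animals their lowest, median and highest levels were 0, 2.04 and 122 CPM and 0, 14.7 and 265 CPM. Mi_43064.1 and Mi_26105.1 showed the reverse, at 0.289 and 1.12 CPM in replicate 1 and 957 and 612 CPM in replicate 6. Moulting replicates 6 and 7 had the highest levels of both.

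Among the 120, the spread between animals was larger in males than in moulting animals for 99 transcripts. The median SD of log2(CPM + 1) was 3.34 over 7 males and 1.99 over 14 moulting animals. For the 9416 other transcripts that reached 10 CPM in both stages these medians were 1.11 and 0.80, so a larger median spread in males was not particular to the 120. The count behind the 99 was not made over them. The 120 also varied together in males: the median Pearson r over their 7140 pairs was 0.75 over 7 males and 0.10 over 14 moulting animals, where the other transcripts had medians of 0.24 and 0.26. For 120 transcripts chosen for males alone by the same kind of score, described below, males had a median r of 0.87 and SD of 2.80. For 120 chosen likewise for moulting animals alone, the moulting animals had a median r of 0.40 and SD of 2.96. Varying together in males was thus not particular to the 120 shared transcripts. All transcripts of a library share its depth and total, so these correlations are given as a description.

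Within the moulting animals the 120 were divided into 4 profiles by clustering their log2(CPM + 1) over the 14 libraries. The number 4 was set and not found from the data. The profiles held 48, 37, 32 and 3 transcripts, with a median Pearson r within them of 0.47, 0.53, 0.61 and 0.62. The profiles were drawn from these values, so their levels are a description. Transcripts of the first profile, which include Mi_26543.1, Mi_43822.1, Mi_38777.1 and Mi_26659.1, had a median level of 60.9 to 173 CPM in moulting replicates 2, 6, 7, 9, 10 and 14 and of 7.86 to 21.7 CPM in the other 8. Those of the second, with Mi_20362.1, Mi_05407.1 and Mi_34481.1, had medians of 57.3 to 137 CPM in replicates 1, 3, 4, 5, 8, 11, 12 and 13 and of 5.04 to 46.8 CPM in the others. Those of the third, with Mi_03491.1, Mi_06983.1 and Mi_17785.1, were highest in replicates 1 and 9, at 360.0 and 274 CPM, and at most 6.19 CPM in replicates 3, 4, 11, 13 and 14.

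Males also differed in the balance of the first 3 profiles. Male replicate 1 held them at medians of 61.7, 143 and 516 CPM, with the third highest. Replicates 5, 6 and 7 had the first highest, at 239.5, 210.1 and 264 CPM, with the second at 108, 64.6 and 87.2 CPM and the third at 145, 61.2 and 238 CPM. In male replicates 2, 3 and 4 the medians of all 3 were at most 2.27 CPM.

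**Figure D3:**
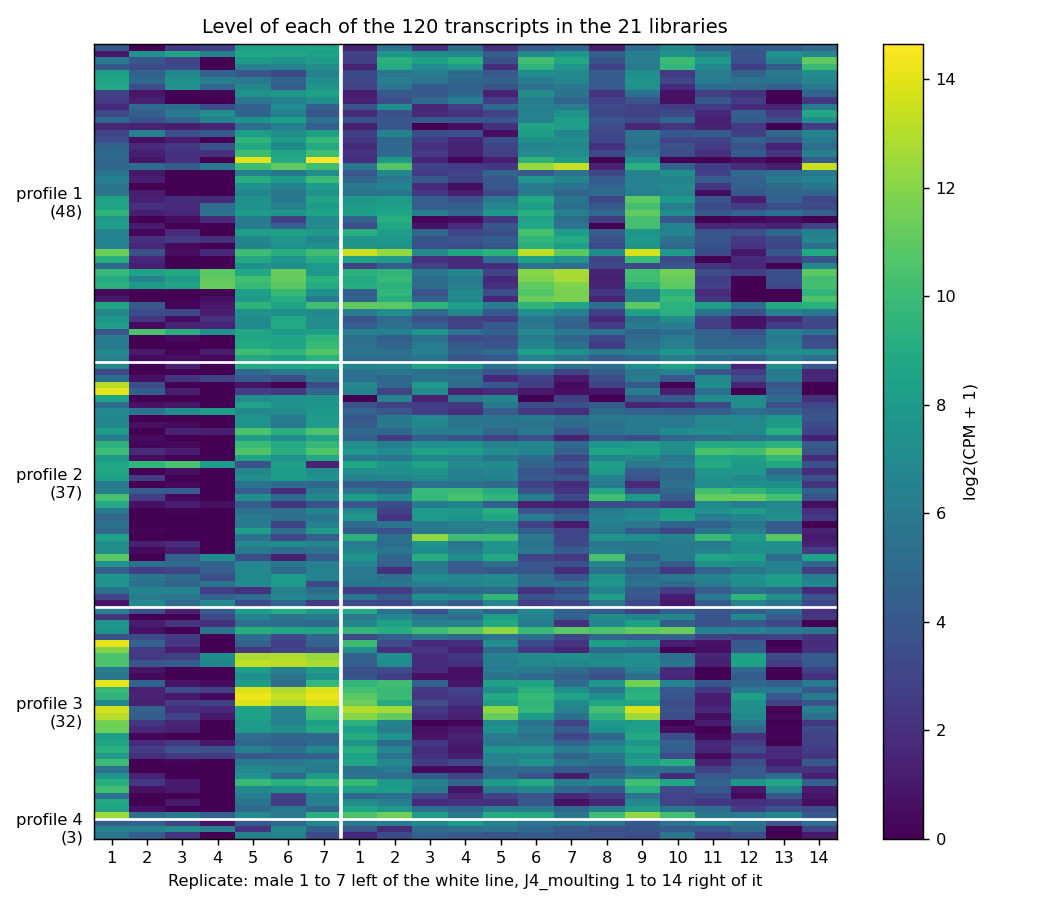
Log2(CPM + 1) of each of the 120 transcripts (rows, grouped by profile over the moulting animals) in 7 males (left of the white line) and 14 moulting animals (right), with colour from dark for 0 to yellow for the highest level. Males 2, 3 and 4 are dark over most rows, and in moulting animals the first profile is bright in replicates 2, 6, 7, 9, 10 and 14, where the second is darker.

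Some of the 120 were close to copies of each other in profile. Of the 7140 pairs, 36 pairs, with 48 transcripts in all, had a Pearson r above 0.95 over the 21 libraries. The closest was Mi_34481.1 with Mi_29395.1, then Mi_18727.1 with Mi_30368.1, Mi_37239.1 with Mi_06523.1, Mi_18964.1 with Mi_30579.1, and Mi_03491.1 with Mi_10782.1, each at 0.99. Mi_42621.1 and Mi_17785.1 also reached 0.99. Over the 14 moulting animals alone these pairs stood at 0.954 to 0.996, but Mi_37239.1 with Mi_37238.1 stood at 0.86, against 0.98 over the 21. The count of 36 was not made over other transcripts. The genome of this species holds near-identical gene copies, and how reads shared by such copies were counted is not given in the sources used here, so the levels within such pairs are uncertain as separate measurements. No sequence was read, so it is not known whether any of these pairs are such copies.

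Males and moulting animals were next compared with each other. Over all 31948 transcripts tested, 8629 differed (edgeR quasi-likelihood test, Benjamini-Hochberg adjusted p below 0.05 and at least a 1-unit log2 fold change), 3417 higher and 5212 lower in males, which is 27.0% of those tested. Among the 120, all of which were tested, 15 differed, 14 higher and 1 lower in males, or 12.5%. The share over all transcripts is 10.7% for higher and 16.3% for lower, and among the 9536 over the minimum in both stages 18.1% differed in either direction. The median size of the log2 fold change was 1.38 for the 120, with a median SE of 1.09. For the 9416 other transcripts over the minimum in both stages these were 0.588 and 0.41. The rule used these same libraries, so nothing is read from the share. The replicates are separate animals.

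Mi_05374.1 rose most clearly in males. Its lowest, median and highest levels were 46.6, 145 and 280.4 CPM in males and 2.89, 19.2 and 37.7 CPM in moulting animals. Every male lay above every moulting animal, and replicate 2 was the lowest and replicate 4 the highest male (log2 fold change 3.32, SE 0.44, edgeR adjusted p = 1.21e-05). Mi_26735.1 had lowest, median and highest levels of 12.8, 306 and 1372 CPM in males and 12.2, 47.2 and 205 CPM in moulting animals. Its highest males were replicates 2 and 3, 5 of the 7 males exceeded every moulting animal, and male replicate 1 was near the lowest of them (log2 fold change 3.31, SE 0.62, edgeR adjusted p = 5.15e-04).

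Mi_17785.1 and Mi_42621.1, nearly alike in profile, were also higher in males. For Mi_17785.1, whose levels are given above, 4 males exceeded every moulting animal and 5 exceeded their median (log2 fold change 5.22, SE 1.07, edgeR adjusted p = 0.00123). Mi_42621.1 had lowest, median and highest levels of 4.47, 1520.3 and 7576 CPM in males and 1.98, 63.1 and 357 CPM in moulting animals, with the same 4 males above every moulting animal (log2 fold change 4.82, SE 1.07, edgeR adjusted p = 0.0023). Mi_44215.1, Mi_06983.1 and Mi_38777.1 were called higher with log2 fold changes of 3.87, 3.71 and 5.33 and adjusted p of 0.0248, 0.0463 and 0.0476 by edgeR. With limma-voom their log2 fold changes were 1.45, 0.29 and 3.35, none called (adjusted p of 0.514, 0.922 and 0.186), and Mi_42621.1 was at 3.08 (adjusted p = 0.0928).

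Mi_21864.1 was the 1 transcript of the 120 called lower in males. Its lowest, median and highest levels were 0, 18.3 and 77.9 CPM in males and 3.83, 233 and 1139.9 CPM in moulting animals. Moulting replicates 3, 4, 5, 8, 11, 12 and 13 held it at 411 to 1139.9 CPM, above every male, and the other 7 moulting animals overlapped with the males (log2 fold change -3.42, SE 1.21, edgeR adjusted p = 0.0382).

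Single males decided some of these calls. Mi_32920.1 and Mi_28134.1 were called higher in males at log2 fold changes of 6.67 and 5.04 (edgeR adjusted p of 0.0101 and 0.0387), and without male replicate 1 the values were -1.32 and -3.32, neither called. Mi_43163.1, called at 4.91, stood at -2.20 without that male, and Mi_02758.1 also lost its call. Without male replicate 1 the number called among the 120 was 16, of which 11 were among the 15, and the median log2 fold change of the 120 moved from 0.43 to -0.18, with a median over all tested transcripts of -0.36 and -0.48. The number called was 9 without male replicate 5 or without moulting replicate 2, 3 or 11, and 8 without moulting replicate 4 or 5. Over all 21 single omissions it ran from 8 to 22. The call was lost in 15 of the 21 omissions for Mi_06983.1 and also for Mi_38777.1, in 8 for Mi_21864.1 and 7 for Mi_28134.1. Mi_44215.1 lost it without male replicate 5 (3.41) and without male replicate 7 (3.43).

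In the 6 other stages the 120 were low but not absent. The highest other stage by mean log2(CPM + 1) was J4 for 66 transcripts, J4_female for 24, female for 12, J3 for 7, pre_J2 for 7 and par_J2 for 4. Their summed level had a median of 533 CPM in J4 and 499 CPM in J4_female, against 360.2 CPM in pre_J2, 269 CPM in J3, 250.4 CPM in female and 243 CPM in par_J2. Ranges of these stages overlapped. J4 replicate 5, at 4013 CPM, had the smallest total of its stage, 3265447 counts, and the other 7 J4 animals lay between 188 and 732 CPM. It was the highest J4 animal for 67 of the 120, led by Mi_03491.1 at 923 CPM. When this library was left out, J4 was the highest other stage for 49 in place of 66, and 112 of the 120 were still chosen.

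Between pre_J2 and par_J2, stages that enter the rule only as part of the 6 low ones, 66 of the 120 had enough counts to be tested, and the other 54 did not. Over all 27241 transcripts tested, 18.2% differed, 11.5% higher and 6.69% lower in par_J2. Of the 66, 6 differed, 5 higher and 1 lower, or 9.09%, below the share over all transcripts. The levels were low throughout. For 7 of the 120 pre_J2, and for 4 par_J2, was the highest other stage, so there these levels set the score. The rule favoured low levels in both stages, so nothing is read from the share.

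Mi_03491.1 was at 20.5 ± 19.1 CPM (SD, n = 12) in par_J2 and 0.319 ± 0.714 CPM (n = 5) in pre_J2 (log2 fold change 6.07, SE 1.52, edgeR adjusted p = 0.00716). All 8 of its pre_J2 counts came from replicate 2, and without that library the fitted log2 fold change was 11.30, a value that then depends on the prior count. Mi_21493.1 was at 3.30 ± 2.48 CPM (SD, n = 12) in par_J2, while all 5 pre_J2 libraries counted 0. On the pooled counts of each group it was at least 70.9-fold higher against a floor of 3 counts over pre_J2 (edgeR adjusted p = 0.0115). That limit covers counting error only and leaves out the spread between animals. Mi_00548.1 was lower in par_J2, at 1.51 ± 1.35 CPM against 18.0 ± 7.88 CPM in pre_J2 (log2 fold change -4.06, SE 0.91, edgeR adjusted p = 0.00288). In the males Mi_00548.1 had lowest, median and highest levels of 0.940, 305 and 438 CPM, with replicate 1 the lowest.

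The 120 were set beside sets of 120 chosen by the same kind of score for males alone and for moulting animals alone, none and 4 of which are shared with them. The male set held 3.23, 8.77, 12.6, 3.89, 1.75, 6.33 and 1.11% of counts in male replicates 1 to 7, so replicates 2, 3 and 4 were not low for it. In moulting animals it held 0.0187 to 0.0417%, except in replicate 10, with 0.708%. The moulting set held 3.74 to 26.9% in moulting animals and 3.06, 0.0201, 0.0745, 0.0129, 0.320, 0.178 and 0.242% in male replicates 1 to 7, highest in replicate 1 and lowest in replicates 2, 3 and 4, as for the 120. These sets were chosen on these libraries and their difference was not tested.

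**Figure D4:**
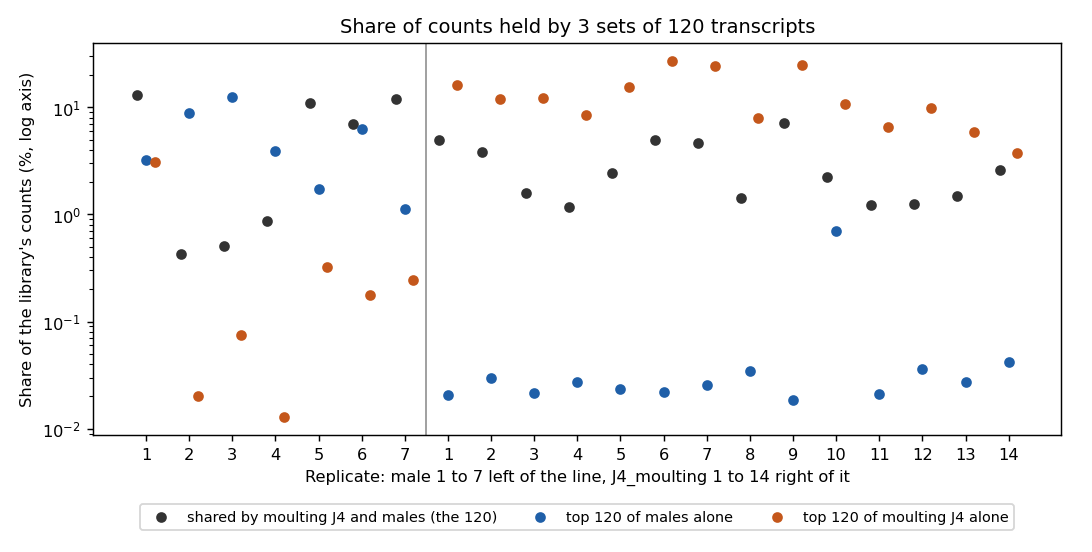
Share of counts (%, log axis) held in each of the 21 libraries by the 120 transcripts shared by males and moulting animals (black), the 120 of males alone (blue) and the 120 of moulting animals alone (orange), by replicate. Males 2, 3 and 4 are low for black and orange and high for blue, and moulting replicate 10 stands at 0.708% for blue while the other moulting animals lie at or below 0.0417%.

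The pairing of males with moulting animals gave the most transcripts with a score of at least 1, and also of at least 2, among all 28 pairs of stages scored the same way. There were 271 and 111 of them. The next pairs were pre_J2 with male, 169 and 36, and pre_J2 with J4, 149 and 9. By other measures the order differed: par_J2 with J3 had more transcripts with a positive score, 1454 against 1309, and pre_J2 with male had a higher top score, 6.55 against 5.19. The number over the minimum differed between pairs, 9536 for males with moulting animals and 6325 for pre_J2 with male, and the group sizes differ, so this order is a description.

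**Figure D5:**
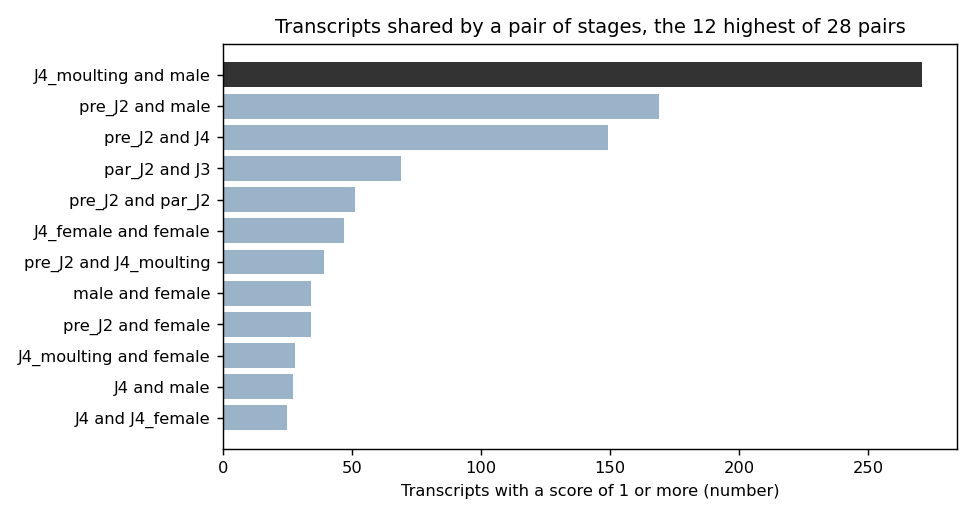
Number of transcripts with a score of 1 or more for the 12 highest of 28 pairs of stages, one bar per pair from 0. Males with moulting animals have 271, pre_J2 with male 169 and pre_J2 with J4 149.

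The limit of the set was not a gap. The last 2 inside were Mi_26105.1 and Mi_21493.1, both at a score of 1.96, and the first 2 outside were Mi_11219.1 at 1.95 and Mi_00739.1 at 1.93. Mi_11219.1 had mean levels of 15.2 CPM in males and 33.8 CPM in moulting animals, and Mi_00739.1 had 255 and 17.8 CPM.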

How the data were processed

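Single nematodes were sequenced in 75 libraries of 8 stages. The authors deposited whole-number counts per transcript: a full table of 45378 transcripts and a filtered table of 22287, in which each transcript has a count in at least 56 libraries and those dropped have one in at most 55. HISAT2 2.2.1 and StringTie 2.2.1 are named per the submitters' processing notes. Which build, annotation, strand setting and handling of reads shared by gene copies they used was not given in the sources used here. All columns were matched to samples by title (0 unmatched). No molecular identifiers are given, so limits from counts of 0 cover counting error only.

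The 120 transcripts and the lists were chosen with earlier results of these data known. CPM used library totals, which ran from 3265447 to 40174566 counts. Tests used edgeR 4.0.16 in R 4.3.3 on the full table (filterByExpr, TMM, robust quasi-likelihood fit) with only the 2 groups compared, Benjamini-Hochberg adjustment over all transcripts tested, and thresholds of 0.05 and a log2 fold change of 1. SE was taken as the size of the log2 fold change divided by the root of its F statistic. The script was tested on simulated counts with the same mean for every animal of a group. These lack the split among the males, so that test checks the code and not the calls among the 120. Alternatives were limma 3.58.1 (voom, weighting samples by quality), DESeq2 1.42.0, other scalings, no filter, the filtered table, 1 fit of all libraries, a replicate block and single omissions. Replicate pairs differed by far more than sampling noise (lowest chi-square per degree of freedom 130 in males, 86.4 in moulting animals).

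Transcripts named in full are the 8 with the highest score, the 5 with the highest mean CPM in each stage, the called ones with the smallest p in each direction (4 for males against moulting animals, 2 for par_J2 against pre_J2), the 3 at 1 CPM or more in the fewest males and the 3 in the fewest moulting animals, and the 2 on either side of the limit. The 5 high in every male, the closest pairs and those dominated or decided by 1 male were named after their values were seen. The files do not pair identifiers with gene names, and no sequence was read.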

Additional observations from a re-analysis of the deposited data

Results flagged for a closer look

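Of 34 sets of values examined, 29 were single named transcripts over the same 7 males and the rest were summed levels within a stage. In 4 of the 34 sets a library's gap to the nearest other was large for its set. Chance flags about 1 in 20 independent sets. These sets share animals, and some transcripts were named for their levels in males, so the 4 are not weighed against that rate. Male replicate 1 lay apart in 3 of the 4: it was the highest male for Mi_32920.1, at 17590.4 CPM, and for Mi_28134.1, at 8697 CPM, and the lowest for Mi_00548.1, at 0.940 CPM. J4 replicate 5 lay apart from the other J4 animals on the summed level of the 120 transcripts, at 4013 CPM.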

How the results depend on the processing

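Choosing the 120 again gave 100 to 117 of them when 1 male or moulting library was left out, and 72 were chosen under all 21 such omissions. The filtered table kept 53, since the other 67 are not in it, and leaving out male replicates 2, 3 and 4, an alternative chosen after seeing the data, kept 79. Stage medians kept 83, and TMM and DESeq2 size factors 104 and 102. For males against moulting animals, the filtered table gave 5019 calls in place of 8629 (2538 higher and 2481 lower, against 3417 and 5212). Calls among the 120 numbered 15, but 10 with DESeq2 size factors, 9 with no filter, 4 of 53 in the filtered table, 26 with DESeq2 (14 higher and 12 lower), 8 with limma-voom and 8 to 22 over single omissions. Mi_28134.1 turned to -2.34 with DESeq2, -1.53 with limma-voom and -3.32 without male replicate 1, and Mi_32920.1 to -0.29 with DESeq2 and -1.32 without male replicate 1, which also turned Mi_43163.1 to -2.20; the cause was not tested. Over single omissions their log2 fold changes ran from -3.32 to 5.66 and from -1.32 to 7.15. Mi_05374.1 and Mi_17785.1 stayed past the threshold under every alternative that gave a value; Mi_06983.1 and Mi_38777.1 missed it under 20 and 19. For par_J2 against pre_J2, 4948 calls became 13827 in 1 fit of all libraries, and calls among the 120 went from 6 to 31 there, to 12 with DESeq2 and to 4 to 8 when 1 of the 5 pre_J2 libraries was left out (no par_J2 library was); size factors gave 2284 higher and 2441 lower and library totals 4176 and 1326, against 3125 and 1823.

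Samples with the same replicate number showed little common deviation. Over 7 pairs of males and moulting animals r was -0.07 to 0.15, with 1 over 0.1 and 1 best with its own number. Over 5 pairs of J2 it was -0.01 to 0.02. The labels name no batch, and these values cannot exclude one shared by a replicate number. With the replicate number as a block, calls were 7714 and 2166, calls among the 120 were 4 and 1, and Mi_28134.1 stood at -4.20.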

Other observations

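For the 11 of the 120 at 2000 CPM or more in replicate 1, the level in replicate 2 was 0.0764 to 0.702% of it, with a median of 0.141%, and 9 of the 11 lay below 0.25%. Mi_09875.1, for example, was at 17860.4 CPM in replicate 1 and 25.5 CPM in replicate 2, and Mi_07200.1 at 17737 and 23.7 CPM. In replicate 4 the same 2 transcripts were at 0.334 and 0 CPM. Replicate 7 held a like percentage for Mi_07200.1, Mi_32920.1, Mi_28134.1 and Mi_43163.1, at 0.143, 0.152, 0.0994 and 0.226% of replicate 1. For the rest of the 11 it stood at 4.56 to 42.4% of replicate 1.

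J4_female replicate 8 had a summed level of 1856 CPM for the 120, against 185 to 878 CPM in the other J4_female animals, and was the highest of its stage for 32 of them. It held Mi_26735.1 at 365 CPM, above every moulting animal. The set of males alone held 1.08% of its counts, against 0.00453 to 0.0623% in the other J4_female animals, and the set of moulting animals alone 0.0789%. In J4 replicate 5 the set of moulting animals alone held 1.03%, against 0.0218 to 0.132% in the other J4 animals, and the set of males alone 0.0664%. High levels in these animals were thus not limited to the 120, and their cause was not tested.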
